A study of Arabidopsis thaliana with 6 samples.

Results

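Vegetative shoot apices of Arabidopsis thaliana that overexpress the microRNA miR164b were compared directly with apices that overexpress miR172a. The comparison uses 4 of the 6 arrays of the study, 2 of each line, chosen by their labels. The other 2 arrays, from plants carrying the empty plasmid pML_Bart, entered no test here and their levels are given as a description. All plants were of the Columbia background (Col-0 for both lines), were grown for 7 days in short days and gave total RNA from the vegetative apex, hybridised to an Affymetrix array. The promoter that drives each microRNA, the number of independent transformants and the pooling of plants are not given in the labels. Whether both arrays of a line were made from different plants is also not stated, and the spread that the p-values rest on may therefore be technical.

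MicroRNAs of the miR164 family guide the cleavage of transcripts for NAC transcription factors, among them the CUP-SHAPED COTYLEDON genes that keep organ boundaries separate at the shoot apex. The miR172 family acts on AP2-type transcription factors, several of which repress flowering, and it lowers their output largely by blocking translation. Both families are therefore known as regulators of shoot development, the former of boundaries and the latter of the change from juvenile to adult growth and to flowering.

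Among named genes the lines differed most in a gene of glucosinolate synthesis, BCAT4, which read 748 and 780.4 in miR164b against 21.8 and 22.5 in miR172a, and in a wax ester synthase gene, WSD1, which read 291 and 364 in miR172a against 9.6 and 14.4 in miR164b. Most genes of glucosinolate and anthocyanin metabolism that passed the test, and both listed cytokinin response genes that were measured, were higher in miR164b. The listed heat shock and auxin response genes that passed, the gibberellin receptor gene GID1B and the flowering genes AGL42, ATC and SNZ were higher in miR172a. Of the 22746 probe sets tested, 1018 (4.48%) passed an adjusted p under 0.05 in the limma fit to the 4 arrays and are referred to as called. Of these, 450 (1.98% of all tested) were higher in miR164b and 568 (2.5%) higher in miR172a. This balance turned over with each array centred on its median, where 667 were called higher in miR164b and 461 higher in miR172a. The called differences were between 0.50 and 5.70 in size on the log2(intensity + 16) scale, with a median of 0.79, and 288 of them were over 1. This scale is used for every log2 difference, given as miR164b minus miR172a with its standard error, and it understates changes of dim genes.

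Arrays of a line did not overlap with those of the other line at any of the 1018 called probe sets, but the same held for 53.4% of all probe sets tested, so absence of overlap alone says little. The 2 arrays of miR164b correlated at 0.994 over all probe sets and those of miR172a at 0.9915, against 0.981 to 0.9824 for arrays of different lines. A control for 25S rRNA gave 443 and 529 in miR164b, 355 and 3462 in miR172a and 4070 and 4093 in vector, so miR172a replicate 2 stood apart from the other 3 arrays compared. For the actin control the 3′ probe set exceeded the 5′ one by factors of 1.96 and 2.11 in miR164b, 2.25 and 3.05 in miR172a and 3.0 and 2.94 in vector. The part of these controls in the differences was not tested. Without miR172a replicate 2 and with the vector arrays sharing in the estimate of spread, 283 probe sets were called. That count was 228 without miR172a replicate 1, 102 without miR164b replicate 1 and 136 without miR164b replicate 2. When a single array of the 4 was dropped and the fit held no vector arrays, 1 residual degree of freedom remained and 0 probe sets were called by limma, with 3287 to 5225 at an unadjusted p under 0.05.

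**Figure D1:**
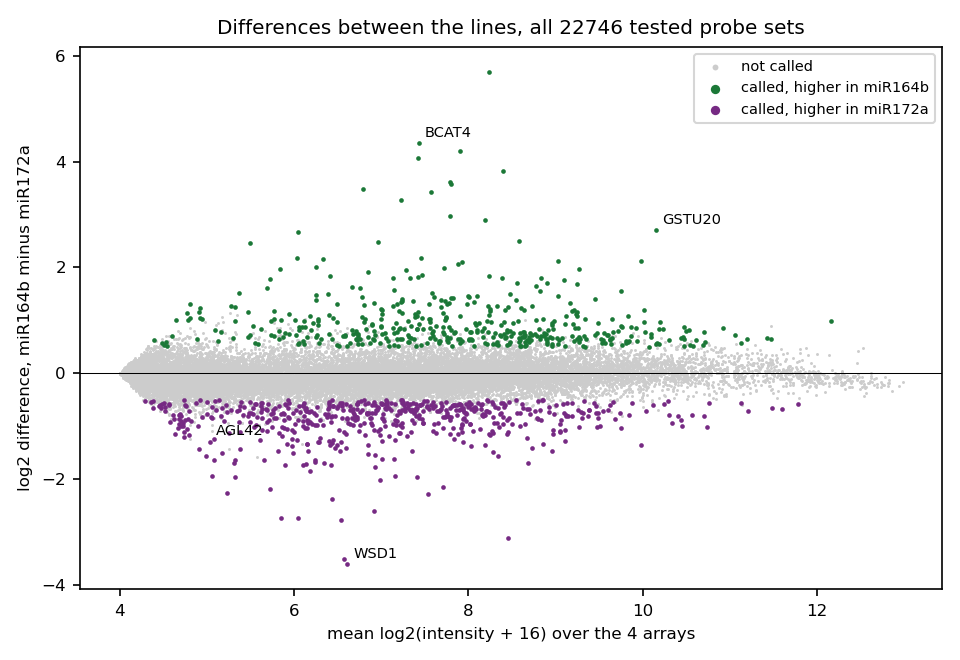
Each point is 1 of 22746 tested probe sets. The horizontal axis is its mean log2(intensity + 16) over the 4 arrays and the vertical axis the log2 difference of miR164b minus miR172a. Green and purple points are called probe sets, 450 higher in miR164b and 568 higher in miR172a on the deposited scale (667 and 461 with median centring), and grey points are not called. The highest point, at 5.70, carries no gene name here.

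Gene names were at hand for part of the array. Of the called probe sets 552 (54.2%) had no single gene name, among them 25 of the 38 that differed by more than 2 on the log2 scale. Of all 22746 tested, 503 had several names and 8730 were not listed, a smaller share than among the calls. The widest difference of all was at such a probe set. It read 2092 and 2232 in miR164b and 25.1 and 26.6 in miR172a. Its vector levels of 162 and 174 lay between the lines, and its log2 difference was 5.70 ± 0.09 (adjusted p = 0.00087). Among the 13355 genes with a name, 464 (3.47%) were called, 216 (1.62%) higher in miR164b and 248 (1.86%) higher in miR172a. These shares are the background for every gene list described here. The median log2 difference of all named genes was -0.06, and 61.1% of the differences were below 0 on the deposited scale against 46.2% with median centring. The lists describe which genes moved, and since they were drawn up with earlier results known, no test was made of a list as a whole.

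The transcripts that the microRNAs act on were covered thinly. The 8 listed targets of miR164 had no probe set with a gene name, and no value was at hand for either microRNA. Of the 6 miR172 target genes 2 were measured, SNZ and SMZ, which encode AP2-type repressors of flowering. SNZ (AT2G39250) read 97.7 and 92.8 in miR164b, 236 and 209.8 in miR172a and 126 and 107 in vector. Both miR172a arrays were above the other 4 arrays, and the difference between the lines was -1.10 ± 0.10 (adjusted p = 0.0173). A transcript of a miR172 target was thus higher on the arrays labelled miR172a, so neither target list checks the labels, and all directions rest on the labels alone. SMZ (AT3G54990) read 167.5 and 169 in miR164b, 171 and 177 in miR172a and 163 and 158 in vector. Its difference of -0.04 ± 0.08 did not pass (adjusted p = 0.805) and changed sign to 0.03 with median centring and 0.01 with quantile normalization.

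Floral regulators were represented by 8 measured genes of 43 listed. Of these 2 were called, both higher in miR172a, and the median log2 difference was -0.11. AGL42 (AT5G62165), related to the flowering promoter SOC1, read 7.1 and 3.0 in miR164b, 33.6 and 37.0 in miR172a and 5.9 and 6.1 in vector. ATC (AT2G27550), a relative of the flowering inhibitor TFL1, read 1.7 and 3.1 in miR164b, 20.8 and 21.0 in miR172a and 4.6 and 3.0 in vector. Only the miR172a arrays exceeded an intensity of 16 for either gene, with log2 differences of -1.29 ± 0.13 (adjusted p = 0.0193) and -1.01 ± 0.09 (adjusted p = 0.0167). Both calls were lost with an offset of 1, where the differences were -2.67 and -2.72. FD (AT4G35900), a bZIP protein that acts with the florigen, lay just outside the threshold at 48.3 and 44.6 against 91.0 and 75.9 (log2 -0.67 ± 0.11, adjusted p = 0.0505) and passed when the vector arrays entered the fit. GI (AT1G22770), a clock gene that promotes flowering, read 463 and 502 in miR164b and 343 and 331.5 in miR172a (log2 0.50 ± 0.09, adjusted p = 0.0583). Vector levels of GI were 490 and 502. GI passed with the vector arrays in the fit, median centring, an offset of 64, the trend and robust option and without the dimmest 40%. It did not pass with quantile normalization, the replicate block or an offset of 1.

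Of the 49 meristem and boundary regulators listed 8 were measured and 1 was called. PTL (AT5G03680), a trihelix factor that limits growth between sepals, read 69.9 and 65.7 in miR164b against 113 and 124 in miR172a, with 95.4 and 94.9 in vector between them (log2 -0.68 ± 0.09, adjusted p = 0.0345). Out of 15 markers of the shoot apex 4 were measured, CLV3, LAS, YAB3 and JAG. Their intensities lay between 37.6 and 471.9 on the 4 arrays, and 0 of the 4 were called. CLV3 (AT2G27250), the stem cell signal of the meristem, read 64.6 and 82.4 in miR164b and 50.9 and 44.9 in miR172a (log2 0.48 ± 0.13, adjusted p = 0.12). LAS (AT1G55580), needed for axillary meristems, read 37.6 and 44.3 in miR164b and 63.9 and 65.8 in miR172a (log2 -0.51 ± 0.10, adjusted p = 0.0648). The arrays of the lines did not overlap for CLV3 or LAS, as at 53.4% of all probe sets, and neither passed the test. In bulk apices, fewer cells of a type and less RNA per cell cannot be told apart.

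Both measured cytokinin response genes of 46 listed were higher in miR164b. They encode type-A response regulators, which are induced by cytokinin and dampen its signal. ARR15 (AT1G74890) read 206 and 200.1 in miR164b and 83.8 and 65.4 in miR172a, with vector at 96.6 and 103 (log2 1.28 ± 0.13, adjusted p = 0.0194). RR16 (AT2G40670) read 77.7 and 74.6 in miR164b and 38.3 and 30.8 in miR172a, with vector at 91.6 and 89.8 (log2 0.87 ± 0.11, adjusted p = 0.0303). The vector arrays lay nearer to miR172a for ARR15 and above both lines for RR16. Of 5 measured genes with an RR symbol, RR16 alone was called and alone lay above 0, and their median was -0.24. The others with that symbol are outside the list.

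Of 16 auxin response genes measured 3 were called, all higher in miR172a, and the median was -0.25 (-0.18 with median centring). Differences were below 0 for 13 of the 16 (81.2%, against 61.1% of all named genes) and for 10 (62.5%, against 46.2%) with median centring. WES1 (AT4G27260), an enzyme of the GH3 family that conjugates auxin to amino acids, read 682 and 690.2 in miR164b and 1229.8 and 1159 in miR172a, and vector read 983 and 981 (log2 -0.78 ± 0.09, adjusted p = 0.0232). HAT2 (AT5G47370), an auxin-inducible homeodomain-leucine zipper gene, read 163 and 169.6 against 260.3 and 301 (log2 -0.70 ± 0.11, adjusted p = 0.0419), and its call was lost with median centring. IAA31 (AT3G17600), an Aux/IAA repressor gene, stayed dim at 5.8 and 5.9 against 18.4 and 15.8, and its call was lost with either other offset and with all 6 arrays in the fit. Vector lay between the lines at WES1 and beside miR164b at HAT2. Among the members not called, GH3.3 read 318 and 279 in miR164b and 357 and 539.9 in miR172a (log2 -0.54 ± 0.21, adjusted p = 0.22). Of 3 gibberellin genes measured, all of them receptor genes, GID1B alone was called. GID1B (AT3G63010) read 50.8 and 47.5 in miR164b and 129 and 119.6 in miR172a, with 72.9 and 74.1 in vector (log2 -1.11 ± 0.09, adjusted p = 0.0141). GID1A and GID1C differed by 0.12 ± 0.10 and -0.19 ± 0.11, without passing (adjusted p = 0.565 and 0.371).

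Genes of glucosinolate metabolism, which makes the sulfur-containing defence compounds of the cabbage family, held the widest named difference. Of 58 listed genes 6 were measured, 3 were called higher in miR164b and 1 higher in miR172a, with a median of 0.87. BCAT4 (AT3G19710), an aminotransferase that starts the chain elongation of methionine, read 748 and 780.4 in miR164b and 21.8 and 22.5 in miR172a. Vector levels of BCAT4 were 39.6 and 34.1, so the miR164b arrays alone were high (log2 4.35 ± 0.08, adjusted p = 0.00107). A glutathione transferase linked to glucosinolate synthesis, GSTU20 (AT1G78370), read 2718 and 3087 in miR164b and 430.5 and 435 in miR172a, beside 581 and 603 in vector (log2 2.70 ± 0.10, adjusted p = 0.00374). UGT74B1 (AT1G24100), the glucosyltransferase of the glucosinolate core, read 618 and 560.4 against 218 and 214.5, beside 259 and 241 in vector (log2 1.38 ± 0.09, adjusted p = 0.00923). In all 3 of these genes vector lay near the miR172a level. GTR1 (AT3G47960), a glucosinolate transporter, was instead higher in miR172a at 227 and 226 against 148 and 136 in miR164b (log2 -0.62 ± 0.09, adjusted p = 0.0386). The related transporter GTR2 and the side-chain enzyme AOP3 did not pass, with differences of -0.17 ± 0.08 (adjusted p = 0.294) and 0.36 ± 0.32 (adjusted p = 0.566).

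The called genes of late anthocyanin synthesis were higher in miR164b. Of 8 flavonoid and anthocyanin genes measured 3 were called higher in miR164b and 1 higher in miR172a, and the median was -0.01 (0.06 with median centring). DFR (AT5G42800), which reduces dihydroflavonols, read 329.8 and 314 in miR164b and 72.7 and 81.3 in miR172a, with vector at 284 and 259 (log2 1.86 ± 0.09, adjusted p = 0.00635). UF3GT (AT5G54060), an anthocyanin glycosyltransferase gene, read 207 and 211 in miR164b and 47.3 and 39.7 in miR172a, with vector at 177.5 and 196 (log2 1.92 ± 0.10, adjusted p = 0.00667). AT5MAT (AT3G29590), which adds a malonyl group to anthocyanins, read 112 and 104 in miR164b and 44.9 and 38.4 in miR172a, with vector at 116 and 139 (log2 1.10 ± 0.10, adjusted p = 0.018). In these 3 genes the miR172a arrays alone were low, the reverse of the pattern at BCAT4. UGT84A1 (AT4G15480), which glucosylates hydroxycinnamic acids, was higher in miR172a, at 54.0 and 56.9 against 7.8 and 4.5 in miR164b (log2 -1.69 ± 0.11, adjusted p = 0.00886). Its neighbour in the genome and in the family, UGT84A3 (AT4G15490), was called in the same direction at 52.5 and 48.3 against 23.2 and 18.8 (log2 -0.85 ± 0.10, adjusted p = 0.0296). The flavonoid glycosyltransferase genes UGT78D1 and UGT78D2 did not pass, with differences of -0.30 and -0.12.

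Of 3 phenylpropanoid and lignin genes measured 1 was called in each direction. HCT (AT5G48930), a hydroxycinnamoyl transferase of the monolignol pathway, read 580.2 and 559.7 in miR164b and 916 and 977 in miR172a (log2 -0.72 ± 0.09, adjusted p = 0.0301). CCR2 (AT1G80820), a cinnamoyl-CoA reductase gene, was dim on all arrays at 10.1 and 12.5 against 2.5 and 2.3, and the vector arrays lay as far apart as 3.3 and 19.2. Its call (log2 0.57 ± 0.09, adjusted p = 0.0468) was lost with offsets of 1 and 64 and with all 6 arrays in the fit.

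Of 32 listed heat shock genes and co-chaperones 7 were measured, 4 were called higher in miR172a and 0 higher in miR164b, with a median of -0.72 (-0.65 with median centring). AT5G48570, listed as the FKBP-type immunophilin ROF2, which is induced by heat, read 47.4 and 47.1 in miR164b and 239.9 and 238 in miR172a, with vector at 59.7 and 64.5 (log2 -2.01 ± 0.08, adjusted p = 0.00401). Hop3 (AT4G12400), an adaptor between Hsp70 and Hsp90, read 27.7 and 25.5 in miR164b and 83.1 and 88.4 in miR172a, with vector at 34.7 and 33.7 (log2 -1.26 ± 0.09, adjusted p = 0.0103). Vector resembled miR164b in both genes, and the miR172a arrays were the high ones. Fes1A (AT3G09350), which protects Hsp70 from degradation, read 180.1 and 158 against 315 and 314 (log2 -0.84 ± 0.10, adjusted p = 0.0275), and Hsp70-2 (AT5G02490) read 226 and 211 against 391 and 351 (log2 -0.72 ± 0.10, adjusted p = 0.0358). Hop1, Hop2 and the small heat shock gene ATHSP22.0 did not pass, with differences of -0.02, -0.32 and 0.27. Fes1B (AT3G53800), a relative of Fes1A outside the list and named because of its value, was called in the opposite direction at 286 and 278 in miR164b against 145 and 149 in miR172a (log2 0.87 ± 0.08, adjusted p = 0.019).

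The listed cold and dehydration genes split. Of 10 measured 2 were called in each direction, with a median of -0.05 (0.02 with median centring). COR27 (AT5G42900), a cold-regulated gene tied to the clock, read 250.4 and 243 in miR164b and 55.7 and 63.5 in miR172a, and vector read 259 and 256 (log2 1.80 ± 0.10, adjusted p = 0.00667). COR47 (AT1G20440), a dehydrin gene, read 1654.5 and 1607 in miR164b and 818 and 825 in miR172a, with vector at 1123 and 1188.5 (log2 0.98 ± 0.08, adjusted p = 0.0155). The miR172a arrays were the lowest of the 6 for both. XERICO (AT2G04240), a RING-type gene that raises abscisic acid levels, was higher in miR172a at 497 and 482 against 243 and 248 (log2 -0.95 ± 0.08, adjusted p = 0.0163). HIS1-3 (AT2G18050), a drought-inducible linker histone, read 113 and 103 in miR164b and 167 and 191 in miR172a, both under the vector levels of 363 and 354. That difference of -0.65 ± 0.11 (adjusted p = 0.049) was lost as a call with median centring and with quantile normalization. LTI30, another dehydrin gene, read 192 and 189 in miR164b and 151 and 167 in miR172a and did not pass (log2 0.24 ± 0.09, adjusted p = 0.211), although vector stood far higher at 476 and 457.

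**Figure D2:**
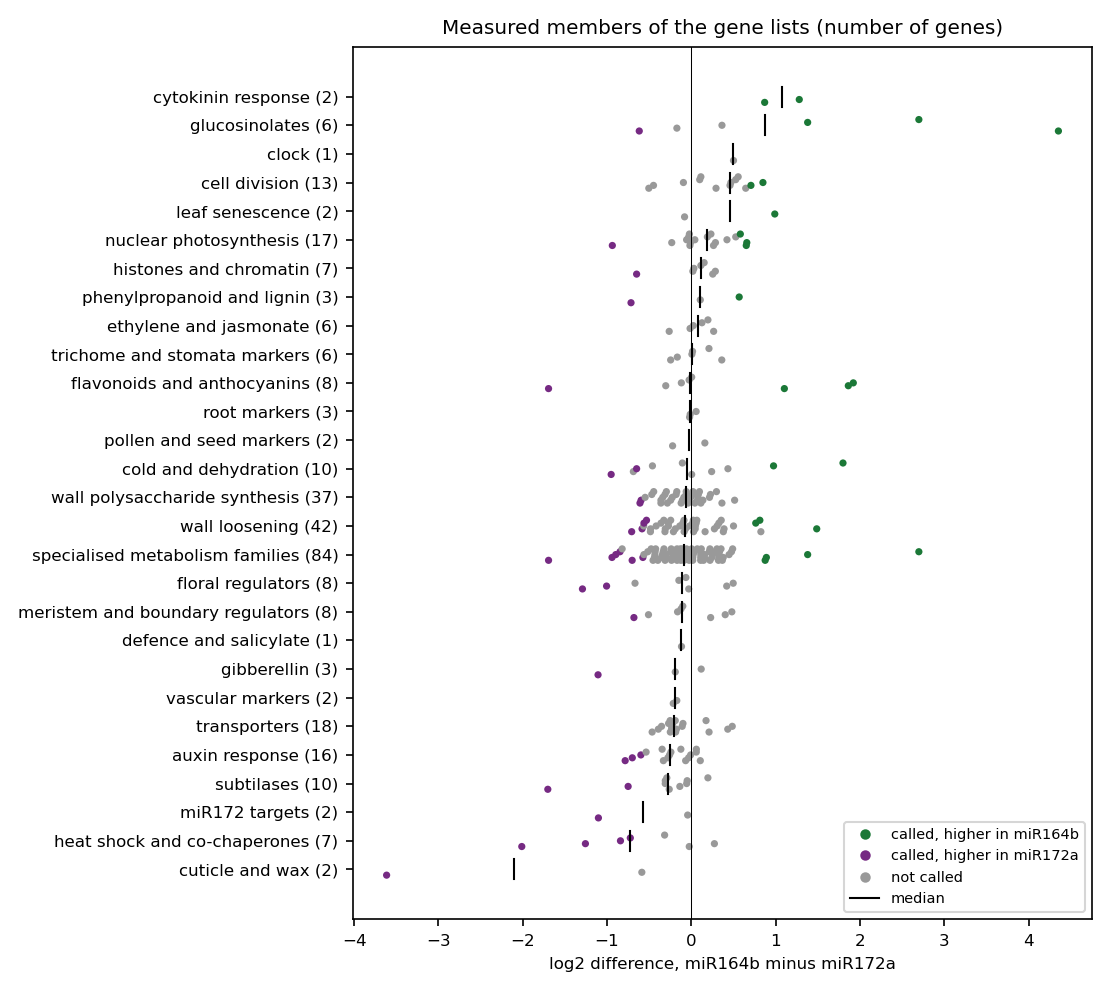
Each point is a measured gene of a list, placed by its log2 difference of miR164b minus miR172a, and the number of measured genes stands in parentheses. Green and purple points are called genes, grey points are not called and black bars are list medians. Heat shock genes lie mostly to the left (median -0.72), and glucosinolate genes (median 0.87) and cell division genes (median 0.46) mostly to the right.

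Of 13 cell division genes measured 10 had differences above 0 (76.9%, against 38.9% of all named genes), also with median centring (against 53.8%), and the median was 0.46 (0.53 with median centring and 0.41 with quantile normalization), but 2 alone were called. KINESIN-12B (AT3G23670), a motor of the phragmoplast that builds the new cell wall, read 192.5 and 175 in miR164b and 99.4 and 90.4 in miR172a, with vector at 167 and 178 (log2 0.85 ± 0.10, adjusted p = 0.0264). AUR1 (AT4G32830), a mitotic Aurora kinase gene, read 464 and 427.5 in miR164b and 279 and 255 in miR172a, with vector at 349 and 377 (log2 0.71 ± 0.10, adjusted p = 0.0358). The related kinase genes AUR2 and AUR3 lay just outside the threshold, with differences of 0.65 ± 0.11 (adjusted p = 0.0517) and 0.56 ± 0.12 (adjusted p = 0.0835). PRL, an MCM-type replication gene, and ICU2, the catalytic subunit of DNA polymerase alpha, leaned to miR172a with -0.50 ± 0.11 (adjusted p = 0.075) and -0.45 ± 0.10 (adjusted p = 0.0818). With the vector arrays in the fit 5 members were called higher in miR164b and 2 higher in miR172a. That fit called more throughout, with 1623 of 22746 probe sets against 1018 without the vector arrays. Called members of all lists together rose from 54 to 67. The share of 3.47% of all named genes does not apply to that fit. Of the 7 histone and chromatin genes measured HIS1-3 was the 1 called. The histone H2B genes HTB1, HTB2, HTB4 and HTB11 differed by 0.25, 0.03, 0.15 and 0.29 and did not pass.

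The cell wall lists were long and mixed. Of 42 wall-loosening genes measured 3 were called higher in miR164b and 4 higher in miR172a, with a median of -0.08 (0.01 with quantile normalization). XTH19 (AT4G30290), a xyloglucan endotransglucosylase, read 108.5 and 116 in miR164b and 27.0 and 32.5 in miR172a, while vector read 24.5 and 17.3 (log2 1.49 ± 0.10, adjusted p = 0.00972). EXPA8 (AT2G40610), an expansin, read 432 and 457 in miR164b and 276 and 219 in miR172a, with vector at 207.5 and 183 (log2 0.81 ± 0.13, adjusted p = 0.048). Vector was below both lines at XTH19 and EXPA8. XTH16 (AT3G23730) was the third of that direction at 622 and 569.7 against 347 and 341 (log2 0.76 ± 0.09, adjusted p = 0.028). On the miR172a side were the expansin EXPA4 (AT2G39700, 435 and 456 against 671 and 658), the endoglucanase genes GH9B13 (AT4G02290, 306 and 344.5 against 573 and 510.2) and GH9B6 (AT1G23210, 3.8 and 2.8 against 14.1 and 11.8), and XTH32 (AT2G36870, 1015 and 1045 against 1532 and 1460.4). Their log2 differences lay between -0.71 and -0.53, and EXPA4, XTH32 and GH9B6 lost their calls with median centring. GH9B6 was dim, under 16 on each of these arrays. Its call was also lost with either other offset, with all 6 arrays in the fit and with the trend and robust option. EXPA4 and XTH32 were higher in both lines than in vector, which read 305 and 301 for the former and 747 and 741 for the latter. Of 37 wall polysaccharide genes 2 were called, both higher in miR172a. PMEPCRF (AT5G53370), a pectin methylesterase, read 178 and 160.2 against 271 and 261 (log2 -0.61 ± 0.09, adjusted p = 0.0443). TBL37 (AT2G34070), of a family that holds wall polysaccharide acetyltransferases, read 109 and 116.5 against 187 and 171 (log2 -0.60 ± 0.09, adjusted p = 0.0459), and its call was lost with both other scalings.

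The cuticle list held 2 measured genes of 61. WSD1 (AT5G37300), a wax ester synthase of the stem surface, read 9.6 and 14.4 in miR164b and 291 and 364 in miR172a, with vector at 22.8 and 16.2. The miR172a arrays alone were bright, and the difference was -3.61 ± 0.15 (adjusted p = 0.00415). SHN3, an activator of wax synthesis, read 10.7 and 1.8 against 19.5 and 14.2 and did not pass (log2 -0.59 ± 0.22, adjusted p = 0.205). Of 10 subtilisin-like protease genes measured 2 were called, both higher in miR172a, with a median of -0.28 (-0.20 with median centring). Differences were below 0 for 9 of the 10 (against 61.1% of all named genes) and for 7 (against 46.2%) with median centring. ATSBT5.2 (AT1G20160) read 26.5 and 31.7 in miR164b and 138.5 and 123 in miR172a, with vector at 24.3 and 35.2 (log2 -1.70 ± 0.11, adjusted p = 0.00886), and SBT3.12 (AT4G21326) read 74.0 and 77.6 against 137 and 139 (log2 -0.75 ± 0.08, adjusted p = 0.0241).

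Families of specialised metabolism, the cytochromes P450, glycosyltransferases and glutathione transferases, gave 84 measured genes. Of these 4 were called higher in miR164b and 6 higher in miR172a. Beside GSTU20 and UGT74B1, the glycosyltransferase genes UGT85A2 (AT1G22360, 238 and 271 against 122 and 137) and UGT72E1 (AT3G50740, 78.7 and 70.4 against 32.3 and 34.3) were higher in miR164b. Their differences were 0.89 ± 0.11 (adjusted p = 0.0303) and 0.88 ± 0.09 (adjusted p = 0.0226). Beside UGT84A1 and UGT84A3, UGT87A2 (AT2G30140) was higher in miR172a at 116 and 126 against 55.8 and 54.7 (log2 -0.94 ± 0.09, adjusted p = 0.0187). CYP71B23 (AT3G26210), a cytochrome P450 gene, was higher there too at 35.9 and 32.1 against 10.8 and 10.9 (log2 -0.90 ± 0.09, adjusted p = 0.0194). Of the 47 glycosyltransferases of the UGT stem 3 were called higher in miR164b and 4 higher in miR172a, and the family median was -0.06.

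Of 17 nuclear photosynthesis and pigment genes 3 were called higher in miR164b and 1 higher in miR172a, with a median of 0.19 (0.27 with median centring). Differences were above 0 for 10 of the 17 (58.8%, against 38.9% of all named genes). This count moved to 15 (88.2%) with median centring (against 53.8%) and with quantile normalization (against 48.9%). PORB (AT4G27440), which reduces protochlorophyllide in the light, read 2814 and 3057 in miR164b and 1951 and 1775.5 in miR172a (log2 0.65 ± 0.10, adjusted p = 0.0433). HEME1 (AT3G14930) and HEME2 (AT2G40490), both for uroporphyrinogen decarboxylase, differed by 0.66 ± 0.08 (adjusted p = 0.0304) and 0.58 ± 0.09 (adjusted p = 0.0462). LHCB4.3 (AT2G40100), an antenna protein of photosystem II, was instead higher in miR172a at 177 and 211 against 102 and 85.3 (log2 -0.94 ± 0.13, adjusted p = 0.0378). The antenna genes LHCB4.1 and LHCB4.2, which are far brighter, differed by -0.03 and -0.23 without passing. Of 69 plastid-encoded genes 0 were called by limma, and the median was -0.07. An unadjusted p under 0.05 was found for 6 of the 69, beside 5417 of all 22746 probe sets tested. SAG29 (AT5G13170), a sugar transporter of senescing leaves, was the 1 called senescence gene of 2, at 90.9 and 95.4 in miR164b and 41.6 and 36.4 in miR172a (log2 0.99 ± 0.09, adjusted p = 0.0189).

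Leaf, 1 of the other tissues that a dissected apex could hold, was represented by the nuclear photosynthesis genes. Of these 17 genes, 3 were called higher in miR164b and 1 higher in miR172a (23.5%, against 3.47% of all named genes). The root, trichome and stomata, vascular, and pollen and seed lists, with 3, 6, 2 and 2 measured genes, showed 0 calls by limma. With so few genes and a share of 3.47% over all named genes, 0 calls says little. The 3 root markers EXPA7, EXPA18 and AGL21 had summed intensities of 29.3 and 40 in miR164b and 33.1 and 32.9 in miR172a, and AGL21 stayed at or below 0.7 on all 6 arrays. The 6 trichome and stomata markers summed to 744 and 737 against 687 and 675, with SPCH, which starts the stomatal lineage, at 0.36 (adjusted p = 0.149) and MUTE, which follows it, at -0.25 (adjusted p = 0.319). The 2 vascular markers summed to 399 and 403 against 459 and 481, with LHW at -0.21 (adjusted p = 0.216) and BRL1 at -0.17 (adjusted p = 0.412). The pollen and seed markers MGH3 and AGL66 stayed dim, with sums of 30.9 and 25.4 against 39.5 and 23.3 and differences of 0.16 (adjusted p = 0.812) and -0.22 (adjusted p = 0.25). Root and pollen sums overlapped between the lines. The summed intensities of the lines did not overlap for the trichome and stomata list, higher in miR164b, or for the vascular list, higher in miR172a. Members of the former went both ways, 4 above 0 and 2 below, with a median log2 difference of 0.01. Absence of overlap was also seen at 53.4% of all single probe sets. The part of cell makeup in the other differences was not tested.

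Several measured lists gave 0 calls by limma between the lines, which says little for short lists when 3.47% of all named genes were called. The 18 sugar and other transporters had a median of -0.21, with the tonoplast sugar carrier TMT1 at 0.49 (adjusted p = 0.131) and the sugar exporter SWEET2 at -0.46 (adjusted p = 0.078). GTR1 and SAG29, also transporter genes, were called under other lists and are not among the 18. The 6 ethylene and jasmonate genes had a median of 0.07, with the jasmonate response factor MYC3 at -0.26 (adjusted p = 0.169) and the defensin PDF1.4 at 0.26 (adjusted p = 0.335). The 1 defence gene, WRKY53, differed by -0.13 (adjusted p = 0.559). A p that misses the threshold does not show that the lines were alike in these genes.

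Most of the 15 largest named differences in each direction were at genes that carried only an identifier in the annotation used here. Lists matched by symbol could miss such genes. Toward miR164b they ranged from 1.65 to 4.35 and, beside BCAT4, GSTU20, UF3GT, DFR and COR27, held the lectin gene JAL33 (AT3G16450), which read 747 and 779.9 in miR164b and 243 and 223 in miR172a. AT4G34950 read 603 and 608 in miR164b and 55.7 and 71.0 in miR172a, with vector at 389.6 and 396 (log2 2.98 ± 0.12, adjusted p = 0.00406). AT4G33980 read 124 and 122 in miR164b and 15.6 and 14.1 in miR172a, with vector at 104 and 104 (log2 2.17 ± 0.08). AT2G23910 read 159 and 152 in miR164b and 22.6 and 21.6 in miR172a, with vector at 159 and 170.4 (log2 2.17 ± 0.08). In these 3 genes vector was close to miR164b and the miR172a arrays were low. A second pattern was seen at AT2G31790, which read 813 and 862 in miR164b, 228 and 230.2 in miR172a and 192 and 219.8 in vector (log2 1.80 ± 0.09), and at AT2G25450, which read 1999 and 2189 in miR164b, 453 and 489 in miR172a and 702 and 733 in vector (log2 2.12 ± 0.10). There the miR164b arrays were the high ones, as at BCAT4. AT4G28780, AT1G07050, AT2G43550 and AT2G33850 completed the 15, with differences of 2.07, 2.01, 1.98 and 1.68.

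Toward miR172a the 15 largest ranged from -1.41 to -3.61. AT1G67865 read 11.6 and 13.1 in miR164b and 290.2 and 324 in miR172a, with vector at 7.9 and 12.6 (log2 -3.51 ± 0.10, adjusted p = 0.00201). AT1G67860, the adjacent gene, read 9.3 and 3.8 in miR164b and 115 and 152 in miR172a, with vector at 23.9 and 12 (log2 -2.73 ± 0.18, adjusted p = 0.00901). Both were bright on the miR172a arrays alone. A second adjacent pair was AT4G30450, at 70.6 and 65.4 against 403 and 386.5 (log2 -2.29 ± 0.09), and AT4G30460, at 47.9 and 52.5 against 195 and 225 (log2 -1.77 ± 0.11). AT2G46140 is known as the late embryogenesis abundant gene LEA27 and was not counted in the cold and dehydration list. It read 53.9 and 57.0 in miR164b and 198 and 189.5 in miR172a (log2 -1.55 ± 0.09). AT1G19450 read 296 and 272 in miR164b and 781 and 843 in miR172a, both above vector at 206 and 214 (log2 -1.47 ± 0.10). The other identifiers were AT2G37900, AT4G21650, AT4G34400, AT5G12110 and AT1G24575, between -1.74 and -1.41. Over all named genes 14 pairs next to each other among protein-coding genes of the TAIR10.1 table were both called, 12 of them in the same direction. Of 5909 adjacent pairs with both genes measured, 53.5% differed in the same direction. Of the 447 measured neighbours of called genes, counted once per called gene, 28 (6.26%) were called, against 3.47% of all named genes. JAL33 and JAL34 and the UGT84A1 and UGT84A3 pair belong to gene families, and whether their probes share targets was not tested. All 73 called genes named by the rule were read by probe sets with the plain "_at" ending, which the array maker uses for probes meant to match 1 transcript.

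**Figure D3:**
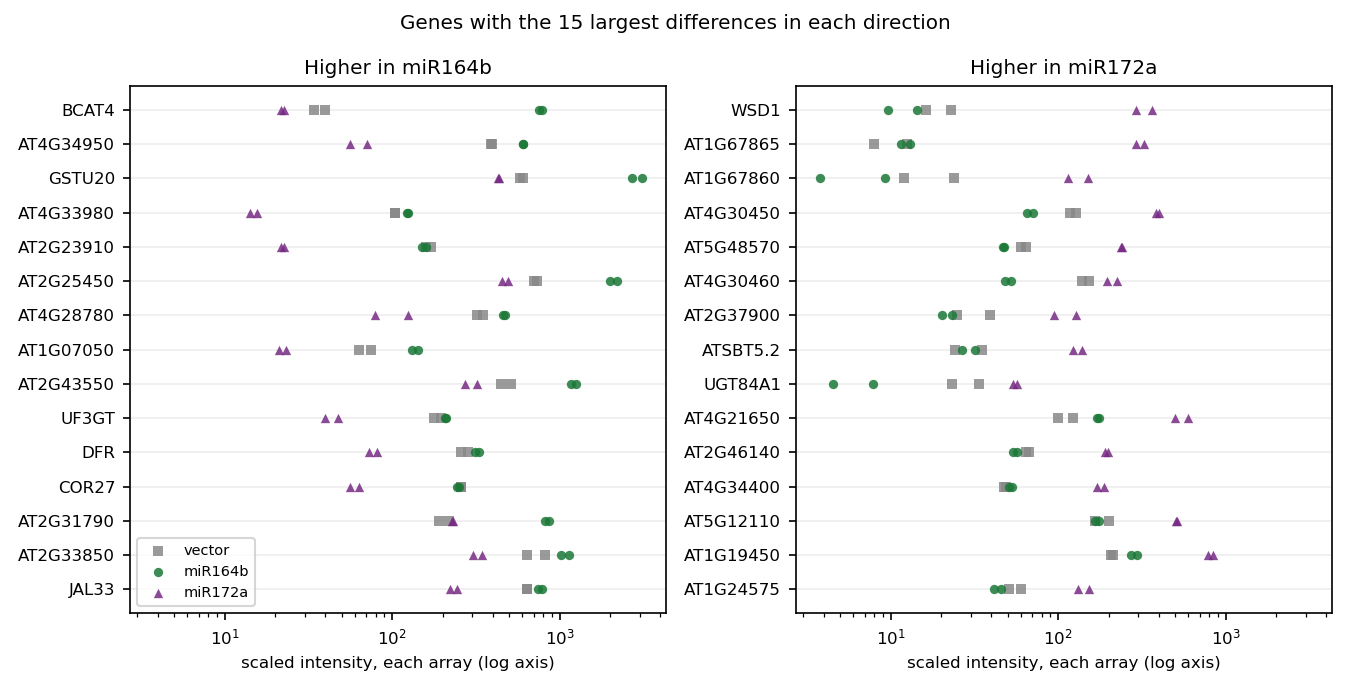
Scaled intensities on each array (log axis) of the 15 named genes with the largest difference in each direction. Green circles are the 2 miR164b arrays, purple triangles the 2 miR172a arrays and grey squares the 2 vector arrays, which entered no test. The arrays of the lines do not overlap for any gene shown, as the choice required.

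Of the 73 genes that the rule named and that were called, 23 were also called in each of the 4 fits that left out 1 array of the lines and kept the vector arrays. On the miR164b side they were BCAT4, GSTU20, UGT74B1, DFR, UF3GT, COR27, JAL33 and 7 genes annotated here by identifier only. On the miR172a side they were WSD1, Hop3 and 7 genes annotated here by identifier only. The others lost their call in at least 1 of these fits. A line mean below 16 was found for 11 of the 73, and with an offset of 1 the call of 9 among them was gone.

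Further called genes with a symbol are given here because of their values and fall outside the rule. APS3 (AT4G14680), an ATP sulfurylase of sulfate assimilation, read 234 and 210.3 in miR164b and 64.8 and 93.5 in miR172a (log2 1.34 ± 0.17, adjusted p = 0.0311). CBL (AT3G57050), the cystathionine beta-lyase of methionine synthesis, read 990.5 and 957.5 in miR164b and 641 and 599.5 in miR172a (log2 0.64 ± 0.09, adjusted p = 0.0359), whereas MGL (AT1G64660), which breaks methionine down, was higher in miR172a at 153 and 160.5 against 79.2 and 81.0 (log2 -0.84 ± 0.08, adjusted p = 0.0198). Of 29 serine carboxypeptidase-like genes 4 were called, SCPL34, scpl35, scpl28 and SCPL49, all higher in miR164b, with differences of 1.37, 0.99, 0.67 and 0.65, while the family median was 0.01. Of the 4 jacalin-related lectin genes with a JAL symbol, JAL33, JAL34 and JAL22 were called higher in miR164b, with differences of 1.65, 0.84 and 0.94, and JAL23 did not pass at 0.06 (adjusted p = 0.772). Of the 3 LIM-domain genes with a WLIM symbol, WLIM1 and WLIM2a were called higher in miR164b, with 0.95 and 0.93, and WLIM2b did not pass at -0.10 (adjusted p = 0.538). These families were counted after the values of their called members had been seen, and no test was made of them. On the miR172a side, HYH (AT3G17609), a bZIP gene of light signalling related to HY5, read 89.0 and 91.8 in miR164b and 189.6 and 197 in miR172a, with vector at 126 and 128.5 (log2 -0.98 ± 0.08, adjusted p = 0.0162). ALC (AT5G67110), a bHLH gene of fruit opening, read 125 and 124 in miR164b and 247 and 265 in miR172a, with vector at 223.5 and 211 (log2 -0.95 ± 0.09, adjusted p = 0.0178).

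Where the vector level lay between the lines was described without a test. Of the 1018 called probe sets the vector mean was closer to miR164b at 687 (67.5%) and closer to miR172a at 331, compared with 50.4% closer to miR164b over all probe sets. For probe sets called higher in miR164b the share was 62.0%, for those called higher in miR172a 71.8%, and for differences over 1 it was 74.3%. With vector replicate 1 or 2 alone the share over all calls was 66.9% and 68.8%, against 48.9% and 53.2% over all probe sets. With median centring it was 67.7%, against 52.9%. Among the 15 largest named differences the vector mean was closer to miR164b for 10 genes on the miR164b side and 13 on the miR172a side. At 178 called probe sets vector lay beyond the miR164b level and at 69 beyond the miR172a level, as for EXPA4 and XTH32 in the former case and XTH19 in the latter.

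**Figure D4:**
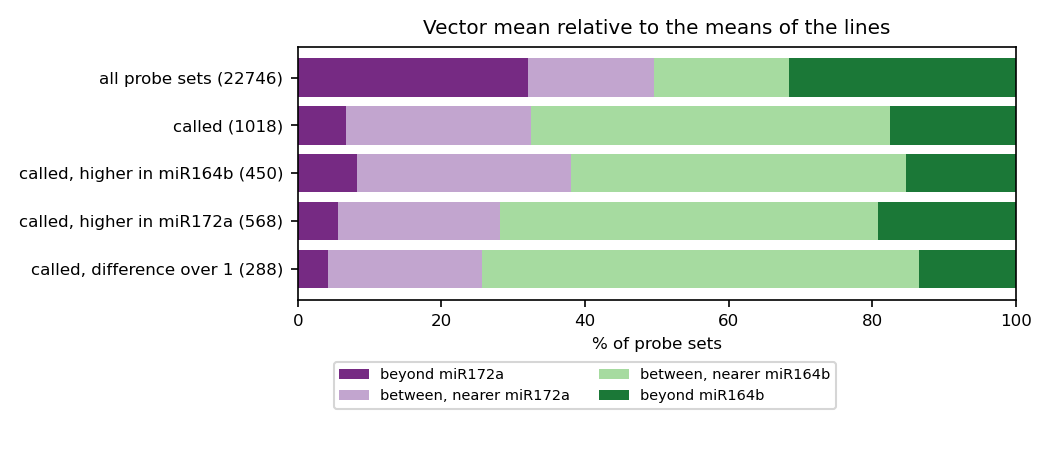
Bars show the percentage of probe sets whose vector mean lies beyond the miR172a mean, between the lines nearer to miR172a, between the lines nearer to miR164b, or beyond the miR164b mean, on the log2(intensity + 16) scale. Numbers in parentheses are probe sets. The share closer to miR164b is 67.5% for called probe sets and 50.4% for all.

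The balance of directions depended on the scaling between arrays. As deposited, 44.2% of the calls were higher in miR164b, whereas with each array centred on its median 667 probe sets (59.1%) were called higher in miR164b and 461 higher in miR172a. Quantile normalization gave 537 and 501. With probe sets split by mean level into 4 bins of near equal size, 1.11% were called in the dimmest bin and 4.75%, 6.09% and 5.96% in the others. In the brightest bin 204 were higher in miR164b and 135 higher in miR172a, and in the dimmest 16 and 47.

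**Figure D5:**
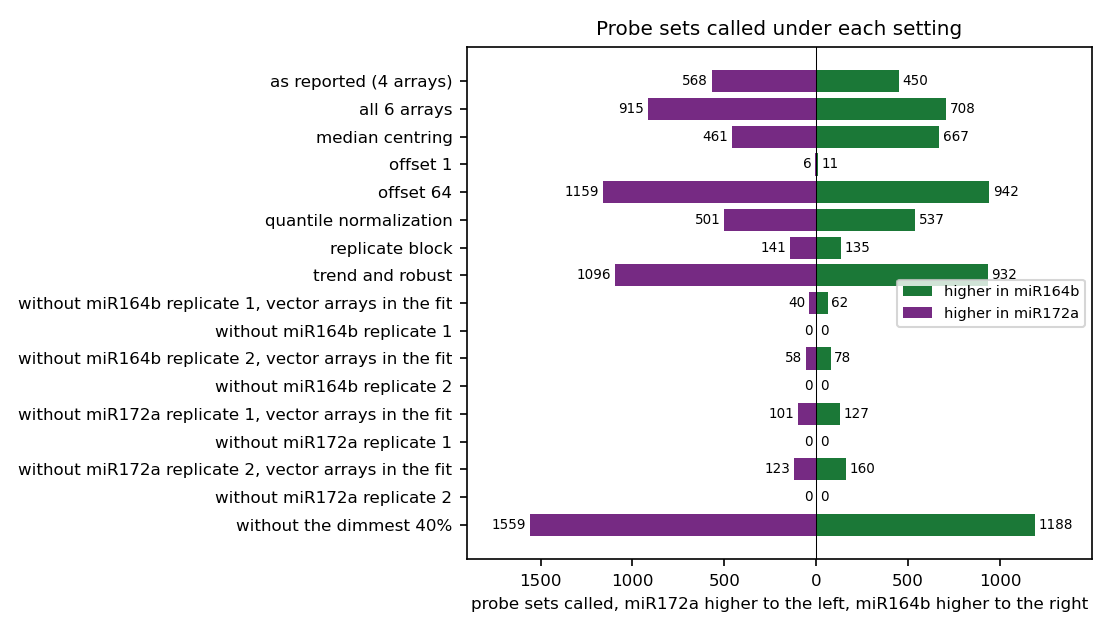
Number of probe sets called under each setting, with those higher in miR172a to the left and those higher in miR164b to the right. The count falls from 1018 to 17 with an offset of 1 and to 0 when any array is left out of the fit to the 4 arrays, and is 2747 without the dimmest 40% of probe sets.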

How the data were processed

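The authors deposited 1 linear scaled intensity per probe set and array (22810 probe sets, 1 decimal). The summary program is not given in the sources used here. On every array the mean without the lowest and highest 2% was 200. The median intensity was 85.3 to 92.2, and no detection calls were used here. The 64 AFFX controls were left out. Names came from the array annotation supplied, brought up to date with the gene table of TAIR10.1 (for names and neighbours only): 13513 probe sets had 1 gene (13436 matched the table), 503 several and 8730 were not listed. For 147 genes with several probe sets the brightest stood for the gene.

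Values were transformed as log2(intensity + 16). An intensity under 16 on each of the 4 arrays was found for 4068 probe sets. A mean per line was fitted with limma 3.58.1 in R 4.3.3 (lmFit and eBayes, 2 residual and 2.72 prior degrees of freedom), with two-sided p-values adjusted by Benjamini-Hochberg over 22746 probe sets and a threshold of 0.05. The method was tested on simulated data. Groups came from the sample descriptions and replicate numbers from the letters ending the titles. Means are over 2 arrays, whose number limits the precision.

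The comparison, the 30 gene lists (28 with a measured gene, 316 genes in all) and the rule for naming genes were chosen with earlier results of these data known. After values had been seen, 47 list matches were removed, being homonyms, plastid-encoded or unannotated identifiers. The rule named 88 genes: measured microRNA targets, the 15 largest called differences in each direction without overlap, up to 4 called members of a list per direction by smallest p, and, in lists without a call, up to 2 members with the largest difference. Alternatives were the offset, the scaling, the filter on dim probe sets, the variance model, the arrays in the fit, the replicate block and the threshold. Fits that left out 1 array but kept the vector arrays, and vector positions with 1 vector array, were added after seeing the data. Promoters and microRNA sequences were not analysed here. Plots used matplotlib 3.10.9 under Python 3.11.15.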

Additional observations from a re-analysis of the deposited data

How the results depend on the processing

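The 1018 calls rose to 1623 with all 6 arrays in the fit, 2101 with an offset of 64, 2028 with an intensity trend and the robust option, 2747 of 13647 without the dimmest 40% and 2471 at an adjusted p under 0.1. They fell to 17 with an offset of 1, 276 with the replicate block and 100 at an adjusted p under 0.01, and were 1128 with median centring and 1038 with quantile normalization. Of the 73 called genes named by the rule, 4 stayed called with an offset of 1 and 40 with the replicate block. The 54 called list members numbered 1, 19, 82 and 11 with the offset of 1, the replicate block and the thresholds of 0.1 and 0.01. Leaving out 1 array left 0 calls in each case. With the vector arrays kept in the fit, the calls were 102, 136, 228 and 283 without miR164b replicate 1 and 2 and miR172a replicate 1 and 2. The named genes called were then 24, 25, 35 and 41, and the list members called 10, 10, 16 and 20. Across the fits 8 to 11 of the 17 lists with at least 5 measured members had a median above that of all named genes. Same-lettered arrays correlated at 0.079 in their deviations, which with 2 pairs cannot show whether the letters pair the samples. The planned fit left the letters out, with the replicate block as an alternative.

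Among the genes named by the rule, those that changed sign had all failed the test. Further named genes changed sign with median centring, where the share below 0 was 46.2% against 61.1% as deposited. EXPA7 (log2 -0.02) was at 0.054 when centred on medians and at 0.0315 after quantile normalization, and ranged from -0.0627 without miR172a replicate 2 to 0.0214 without miR172a replicate 1. SMZ (log2 -0.04) was at 0.0312 and 0.0139 with the 2 scalings. Over the fits without 1 array MGH3 ranged from -0.3087 (without miR172a replicate 2) to 0.6302 and EXPA18 from -0.1165 (without miR164b replicate 2) to 0.2309, with or without the vector arrays. The cause of these changes was not tested. Of the 73 called genes, 40 kept their call in every fit that used all 4 arrays at the threshold of 0.05 and had its probe set, apart from that with the offset of 1. The offset limits what can be read from dim probe sets.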
